A study of Mus musculus with 6 samples.

Results

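Genes of fat cells and lipid synthesis were followed in RNA sequencing of limb bone perichondrium, the connective tissue sheath of growing cartilage. The 10 genes (Acaca, Fasn, Scd1, Gpd1, Lpl, Fabp4, Plin1, Adipoq, Pparg and Cebpa) were chosen by name from 55536 genes in the deposited count matrix. No rule on their values was used, but earlier results of these data were known. Each matched 1 gene of GENCODE M21. The tissue was dissected from mice at postnatal day 4. In the knockout group, labelled Fbn1Scx-/-, Fbn1 (fibrillin-1) was deleted in cells that express Scx (scleraxis), a gene of tendon and ligament cells, and the other group was wild type, with 3 libraries in each. The sources used here do not give the Cre and Fbn1 alleles of the wild-type mice. They also do not tell whether 1 library is 1 animal, so each p reflects spread among libraries, which may be technical. Libraries are named by group and title number, from mut-596 to WT-795, and wherever 3 values stand for a group they are in the order mut-596, mut-597, mut-795 or WT-596, WT-597, WT-795.

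Fat cells store triglyceride in a lipid droplet. They take fatty acids from lipoproteins in blood or make them from acetyl-CoA, and they arise from mesenchymal precursors under the transcription factors encoded by Pparg and Cebpa. Connective tissue around young bone lies close to fat depots, muscle, nerve and marrow, and enzymes of fatty acid synthesis also work in cells that are not fat cells, since all dividing cells need membrane lipid. Fabp4 and Lpl are also transcribed in cells other than adipocytes, Fabp4 in endothelium and macrophages and Lpl in muscle and macrophages.

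Total counts per library lay between 7209217 and 10316017. Fbn1 was lower in every knockout library, at 6.75 to 10.04 CPM (counts scaled for library size) against 63.5 to 119 CPM in wild type, and passed the test (edgeR quasi-likelihood, adjusted p = 1.03e-04). It was the only gene of 15712 tested to pass at an adjusted p under 0.05, which is 0.00636% of genes. With a term for the 2 libraries that hold Xist its adjusted p was 0.104. The number of genes past the threshold was 270 with no filter on low counts (0.845% of genes tested so), 12 without mut-795 and 1517 without WT-795 (9.08%, with 3.35% higher and 5.73% lower in knockout). Each call without WT-795 given with a gene list stands beside these shares. The dissected tissue held connective tissue markers at 35923 to 38421 summed CPM over 10 genes, though single markers were less even, such as Col1a1 at 5213 to 13025 CPM and Scx at 12.7 to 42.5 CPM. Skeletal muscle markers were at 3314 to 6528 summed CPM over 15 genes in knockout and 4281 to 13401 in wild type. The libraries also differed in sex-linked transcripts. Of the 6 libraries, mut-596 and mut-597 had 6221 and 4024 counts of Xist, which is made from the silenced X chromosome of females, and no other had more than 4. Ddx3y, a gene of the Y chromosome, had 0 counts in these 2 and 842 to 1641 in the others. Both libraries with Xist are knockouts, so sex and genotype cannot be fully told apart. In bulk tissue fewer cells of a type and less RNA per cell cannot be told apart.

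Promoter sequence is shown for 3 of the genes, Adipoq for the widest range between libraries among the tested members, and Fasn and Cebpa for a GC-rich start and a fold change whose sign depended on GC content (given with each gene). Each run holds the 250 bases before the RefSeq start in GRCm38.p6, read 5′ to 3′ on the gene's strand, and 6 of the 10 genes had such a window. Capitals mark matches, on either strand, to any of the motifs searched, which were the core promoter motif TATAAA, the NF-Y motif CCAAT, the nuclear receptor motif AGGTCA, the C/EBP motif TTGCNNAA, the E-box CACGTG and the GC box GGGCGG. Adipoq lies at chr16:23146286-23146535 on the plus strand, Fasn at chr11:120824548-120824797 on the minus strand, and Cebpa at chr7:35119043-35119292 on the plus strand.
Adipoq: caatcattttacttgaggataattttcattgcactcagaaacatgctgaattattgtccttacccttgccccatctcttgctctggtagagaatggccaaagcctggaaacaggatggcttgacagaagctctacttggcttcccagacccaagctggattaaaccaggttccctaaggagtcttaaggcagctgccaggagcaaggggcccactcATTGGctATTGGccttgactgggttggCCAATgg
Fasn: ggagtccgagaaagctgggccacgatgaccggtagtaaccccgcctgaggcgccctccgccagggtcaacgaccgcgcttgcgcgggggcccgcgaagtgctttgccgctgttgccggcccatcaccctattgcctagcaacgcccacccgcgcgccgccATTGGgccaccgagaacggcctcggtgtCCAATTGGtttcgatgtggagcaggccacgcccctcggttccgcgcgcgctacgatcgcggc
Cebpa: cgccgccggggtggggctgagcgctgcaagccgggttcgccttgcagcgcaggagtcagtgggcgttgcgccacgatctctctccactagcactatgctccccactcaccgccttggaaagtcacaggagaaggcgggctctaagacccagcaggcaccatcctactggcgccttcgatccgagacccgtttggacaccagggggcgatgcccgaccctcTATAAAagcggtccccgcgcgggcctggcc
The Adipoq run was 48.8% G and C, against 69.2% for Fasn and 66.4% for Cebpa, and the median over 27025 genes was 52.0%. Adipoq and Fasn each held 3 matches to CCAAT, which begin 34, 27 and 7 bases before the start in Adipoq and 90, 62 and 59 bases before it in Fasn, where the last pair overlaps. Of all 27025 windows 34.5% held that motif. Cebpa held 1 match to TATAAA, 30 bases before its start, a motif found in 13% of windows. None of the 3 windows held the nuclear receptor, C/EBP, E-box or GC box motif, which were in 13.8%, 9.55%, 6.05% and 32.9% of all windows.

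None of the 10 genes passed the test between knockout and wild type. Of them 9 passed the filter on low counts and were tested, and Pparg did not. At an adjusted p under 0.05, 0 of the 9 passed by edgeR, 0 by DESeq2 and 0 by limma-voom. At an unadjusted edgeR p under 0.05 it was 1 of 9, Scd1, which was higher in knockout, beside 10.5% of all genes tested (3.37% higher and 7.12% lower). The median log2 fold change of the 9 was 0.17, with 5 above 0 and 4 below, beside a median of 0.01 over all genes, of which 49.1% lay below 0. The groups did not overlap in CPM for 2 of the 9, beside 11.9% of all genes tested. Lpl was higher in knockout, as were 5.66% of genes, and Fasn lower, as were 6.22%. The authors' deposited table of differential genes, whose rule of selection the sources do not give, lists 1 of the 10 members, Scd1, and 7.59% of the genes tested here.

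**Figure D1:**
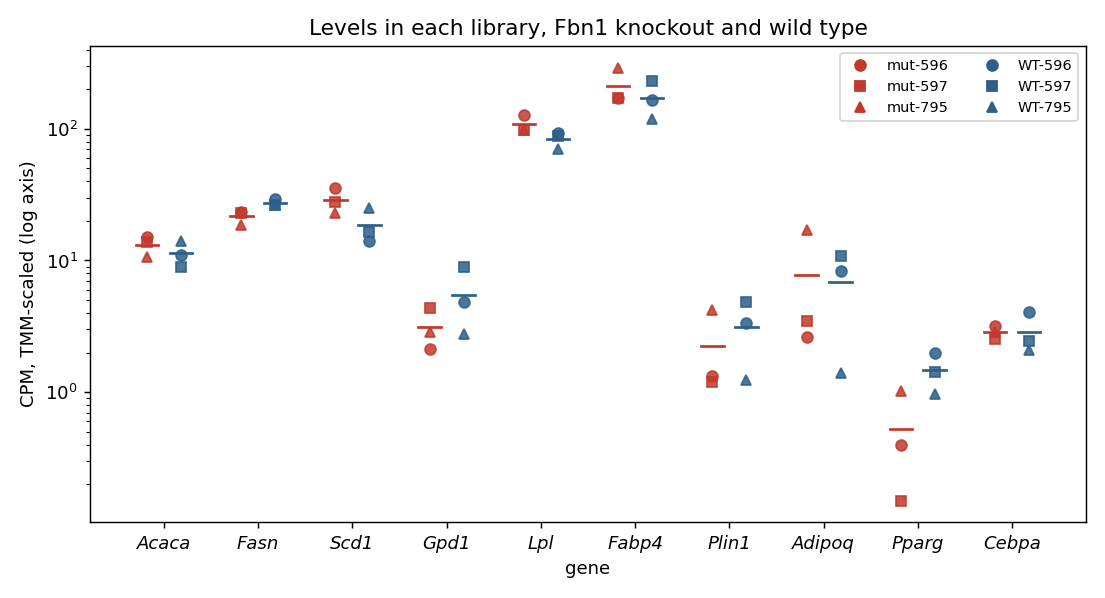
CPM of each gene (log axis) in the 3 knockout libraries (red) and the 3 wild-type libraries (blue), with a short line at each group mean. Scd1 lies higher in 2 of the knockout libraries than in every wild-type library, and Adipoq spreads from 1.39 to 17.1 CPM with both groups at either end.

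Per kilobase of exon, which allows levels to be compared between genes, the carrier of fatty acids Fabp4 stood first, at 26.4 to 65.1 CPM per kilobase over the 6 libraries. Lpl followed at 6.71 to 12.2, below every Fabp4 value. Adipoq (1.003 to 12.4) and Scd1 (2.87 to 7.32) overlapped each other, and both also overlapped Lpl. Further down the order Adipoq overlapped Fasn, Gpd1, Cebpa and Plin1, and Scd1 overlapped Gpd1. Fasn (1.71 to 2.70) lay below every Scd1 value. Gpd1 (0.714 to 3.00), Cebpa (0.789 to 1.55), Acaca (0.525 to 0.882), Plin1 (0.258 to 1.04) and Pparg (0.0508 to 0.675) came last, and each of them overlapped its neighbour in this order.

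The 3 enzymes of fatty acid synthesis lay on both sides of 0, and none passed the test. Acaca, which makes malonyl-CoA, the committed step (ENSMUSG00000020532, chromosome 11, 84129672 to 84401651, plus strand, GRCm38), was at 15.1, 13.8 and 10.6 CPM in knockout and at 10.9, 8.96 and 14.1 CPM in wild type. The groups overlapped, with mut-795 near the lower wild types and WT-795 near the higher knockouts. Its log2 fold change, knockout against wild type, was 0.22 (SE 0.26, edgeR adjusted p = 0.718), and with a term for the 2 libraries that hold Xist it was -0.09. Acaca overlaps 2 annotated genes, Gm11437 on the opposite strand and Gm37391 on the same strand, and the counting is not stated to use strand.

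Fasn, the enzyme that builds palmitate (ENSMUSG00000025153, chromosome 11, 120805846 to 120824547, minus strand), was at 23.4, 22.8 and 18.7 CPM in knockout and at 29.5, 26.2 and 26.5 CPM in wild type. Every knockout library lay below every wild-type library, by a small margin. The group means were 21.6 ± 2.54 and 27.4 ± 1.85 CPM (SD, n = 3), and the log2 fold change was -0.34 (SE 0.22, edgeR adjusted p = 0.512), and an exact two-sided permutation test gave p = 0.1, the smallest value that 3 against 3 libraries allow. Over 15701 genes, as a description and with no p since genes are not replicates, the log2 fold change was lower for transcripts richer in G and C (Spearman rho = -0.619). The Fasn transcript is 57.9% G and C, and after a correction for GC content in each library its log2 fold change was 0.04 (SE 0.22), so its direction depended on that correction.

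Scd1, the desaturase that turns palmitate and stearate into their monounsaturated forms (ENSMUSG00000037071, chromosome 19, 44394455 to 44407879, minus strand), had 271, 187 and 224 counts in knockout and 148, 175 and 182 in wild type. Scaled for depth these were 35.8, 28.0 and 23.0 CPM in knockout and 14.1, 16.5 and 25.2 CPM in wild type. WT-795 thus lay above mut-795, and the other wild types lay below all 3 knockouts. The means were 29.0 ± 6.42 and 18.6 ± 5.87 CPM (SD, n = 3), a 1.56-fold difference with a log2 fold change of 0.64 (SE 0.27, edgeR adjusted p = 0.459). The authors' deposited table gives it a log2 fold change of 0.64. Without WT-795 Scd1 was higher in knockout by edgeR, at a log2 fold change of 0.90 (SE 0.25, adjusted p = 0.0369), in a fit that called 9.08% of all genes tested, 3.35% as higher. Its adjusted p over all 17 alternatives ran from 0.0369 to 0.931, and its direction was the same in each of them. With the GC correction it was at 0.58 (SE 0.24). With the Xist term, where mut-795 alone stands against the wild types, it was at 0.32 (SE 0.37). The 2 libraries highest in Scd1 are also those that hold Xist, so sex and genotype cannot be told apart in them. Myelin-forming Schwann cells, which are rich in lipid synthesis, had markers at 335, 327 and 219 summed CPM over 10 genes in knockout, and at 234, 226 and 230 in wild type. Most of each sum was 1 gene, Pmp22, at 254, 249 and 183 CPM in knockout and 206, 184 and 208 in wild type. Of 8 tested markers, 6 lay above 0 in log2 fold change and 2 below, Sox10 (-1.16, SE 0.67) and Prx (-0.21, SE 0.36). The libraries mut-596 and mut-597 thus held the highest values of both Scd1 and the marker sum, but single markers differed. The part of Schwann cells in the Scd1 levels was not tested.

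The other enzymes and regulators of fatty acid synthesis were split. Of 18 genes in that list 0 passed by edgeR in either direction, 10 lay above 0 and 8 below, with a median log2 fold change of 0.21. At an unadjusted edgeR p under 0.05, 1 was higher and 3 were lower, beside 3.37% and 7.12% of all genes tested. The fatty acid elongase gene Elovl6 was at 22.4, 16.8 and 17.3 CPM in knockout against 9.59, 12.0 and 16.6 CPM in wild type. Its log2 fold change was 0.57 (SE 0.26, edgeR adjusted p = 0.468), and its groups did not overlap. The groups lay apart for 2 of the 18, both higher in knockout, beside 5.66% of all genes tested. Tecr, which encodes the last reductase of the elongation cycle, was at -1.30 (SE 0.35), with 11.9 to 26.7 CPM in knockout and 26.1 to 68.6 CPM in wild type. Elovl1, for very long chains, was at -1.04 (SE 0.30) and the mitochondrial citrate carrier gene Slc25a1 at -0.98 (SE 0.34), and each of these 3 lower genes had an edgeR adjusted p of 0.459. These were the 3 of 18 that passed by edgeR without WT-795, all lower in knockout, in a fit that called 5.73% of all genes lower, at -1.62 (adjusted p = 0.00707) for Tecr, -1.31 (0.0116) for Elovl1 and -1.27 (0.0218) for Slc25a1. With no filter on low counts Tecr (adjusted p = 2.46e-04) and Elovl1 (0.0233) also passed. Among 9 tested regulators 0 passed, and the LXR-beta gene Nr1h2 (-0.93, SE 0.33), Srebf2 (-0.23), Usf1 (-0.24) and Insig2 (0.24) had the smallest p. Of the 9, 1 was lower at an unadjusted edgeR p under 0.05, beside 7.12% of all genes tested. Nr1h2 passed without WT-795, at -1.24 (edgeR adjusted p = 0.0165). Srebf2 and Usf1 had the opposite sign with the GC correction, at 0.14 and 0.12. Transcript GC was 56.9% for Tecr, 52.5% for Elovl1, 59.1% for Slc25a1 and 60.6% for Nr1h2. Over 17 alternatives, the GC correction among them, the values of these genes nearest 0 were -0.90, -0.72, -0.52 and -0.41.

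Cholesterol synthesis genes, which share the SREBP pathway with Scd1, gave 0 of 17 past the threshold by edgeR, with 10 above 0 and a median of 0.02. At an unadjusted edgeR p under 0.05 it was also 0 of 17, beside 10.5% of all genes tested. Those with the smallest p were Cyp51 at 0.55 (SE 0.27), Hmgcs1 at 0.51 (SE 0.24), Sqle at 0.49 (SE 0.26) and Mvk at -0.47 (SE 0.29). Sqle, the squalene epoxidase gene, was at 43.2, 40.3 and 36.2 CPM in knockout and at 23.0, 22.0 and 40.3 CPM in wild type. As for Scd1, WT-795 lay inside the knockout range and the other wild types below it. The list was split in this, since WT-795 lay above both other wild types in 9 of 17 genes, and Mvk, for mevalonate kinase, ran the other way at 9.97, 10.7 and 6.93 CPM in wild type. Cyp51, which encodes lanosterol demethylase, gave 15.5, 14.1 and 27.6 CPM in wild type, beside 23.7 to 29.8 CPM in knockout. Without WT-795 both passed by edgeR, at 0.81 (adjusted p = 0.0344) for Sqle and 0.89 (adjusted p = 0.0320) for Cyp51.

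**Figure D2:**
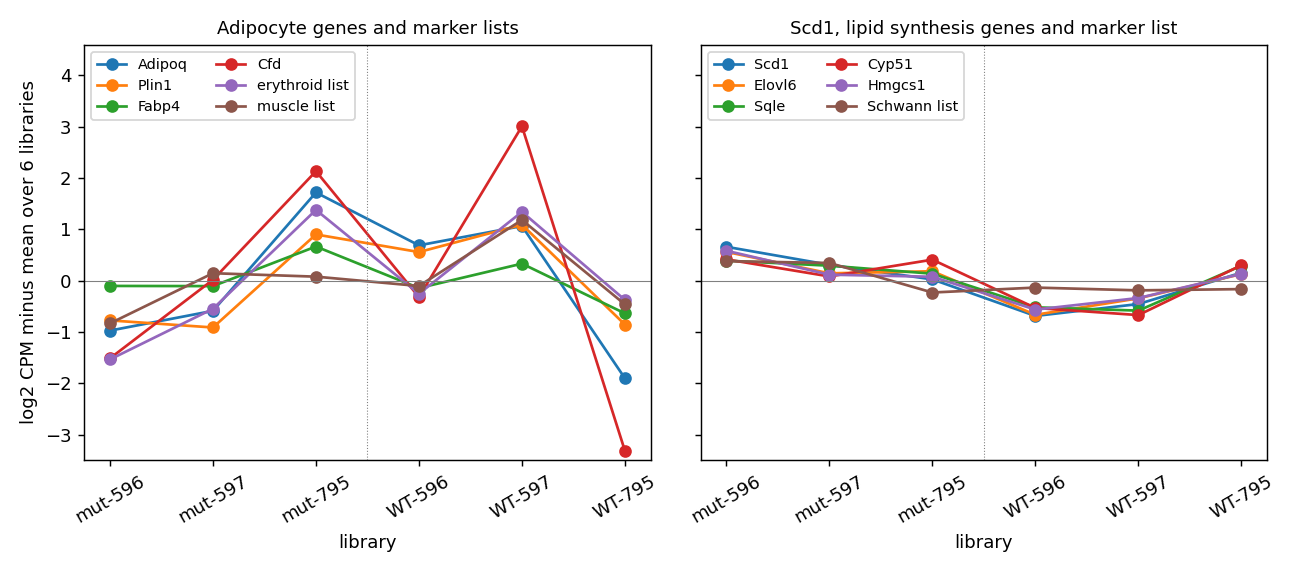
For each gene, or the summed CPM of a marker list, log2 CPM in the 6 libraries minus its mean over them, where lines only join the points of 1 gene or list. On the left Adipoq, Plin1 and Cfd are high in mut-795, and in WT-597, and low in WT-795 (1.39 CPM for Adipoq); on the right Scd1, Sqle, Cyp51 and Hmgcs1 are low in WT-596 and WT-597 but not in WT-795.

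Gpd1, the cytosolic enzyme that supplies glycerol 3-phosphate for triglyceride (ENSMUSG00000023019, chromosome 15, 99717515 to 99725005, plus strand), was at 2.11, 4.35 and 2.88 CPM in knockout and at 4.84, 8.87 and 2.77 CPM in wild type. The groups overlapped through WT-795, and the highest value was that of WT-597. The log2 fold change was -0.85 (SE 0.43, edgeR adjusted p = 0.478). WT-597 also had the most skeletal muscle marker RNA, 13401 summed CPM, and with a covariate for these markers Gpd1 was at -0.31 (SE 0.35). Without WT-597 Gpd1 was at -0.34 (SE 0.44). The muscle markers themselves had 13 of 15 log2 fold changes below 0, and the part of muscle in the Gpd1 levels was not otherwise tested. A gene annotated on the opposite strand, Gm16537, overlaps Gpd1.

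Other genes of triglyceride synthesis gave 0 of 13 past the threshold by edgeR, with 8 below 0 and a median of -0.33. Of the 13, 2 were lower at an unadjusted edgeR p under 0.05, beside 7.12% of all genes tested. Agpat2, the acyltransferase gene whose loss causes lipodystrophy, was at -0.98 (SE 0.37), with 3.75 to 7.82 CPM in knockout and 5.68 to 13.5 CPM in wild type. Agpat3 (-0.59, SE 0.25) and the lipin gene Lpin3 (-0.55, SE 0.36) had every knockout library below every wild type. This held for 4 of the 13, beside 6.22% of all genes tested, and 0 lay wholly higher, beside 5.66%. Lpin2 was at 0.45 (SE 0.27). Without WT-795 both Agpat2 (-1.28, edgeR adjusted p = 0.0277) and Agpat3 (-0.79, adjusted p = 0.0400) passed, 2 of 13 beside 5.73% of all genes called lower. The 2 genes are in the authors' deposited table, at -0.997 and -0.593. Transcript GC was 58.0% for Agpat2 and 54.2% for Agpat3, and over 17 alternatives their values nearest 0 were -0.42 and -0.28.

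Of the pair that brings fatty acids into cells and carries them, Lpl had the more even levels. Lpl, the lipase that frees fatty acids from circulating triglyceride (ENSMUSG00000015568, chromosome 8, 68880491 to 68907448, plus strand), was at 128, 98.8 and 97.7 CPM in knockout and at 93.1, 88.6 and 70.3 CPM in wild type. Every knockout library lay above every wild-type library, with mut-795 and WT-596 close together. The means were 108 ± 16.9 and 84.0 ± 12.1 CPM (SD, n = 3), and the log2 fold change was 0.36 (SE 0.22, edgeR adjusted p = 0.502), or 0.10 (SE 0.21) after the GC correction.

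Fabp4, the cytosolic fatty acid carrier (ENSMUSG00000062515, chromosome 3, 10204088 to 10208576, minus strand), was at 172, 171 and 292 CPM in knockout and at 167, 232 and 118 CPM in wild type. The highest value was in mut-795 and the lowest in WT-795, and the groups overlapped. The log2 fold change was 0.30 (SE 0.28, edgeR adjusted p = 0.644), and it was -0.02 (SE 0.29) without mut-795 and -0.03 (SE 0.30) with the GC correction. Endothelial markers, from cells that also transcribe Fabp4, were at 205 to 235 summed CPM over 10 genes in knockout and 228 to 239 in wild type. The sum was smallest in mut-795, but single markers differed. In that library Pecam1 was at its lowest, 38.0 CPM, and Tek was at 17.2 CPM, above the wild types at 11.5 to 14.3. Macrophage markers were at 222 to 233 summed CPM over 10 genes in knockout and 191 to 318 in wild type. The part of either cell type in the Fabp4 levels was not tested.

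Of 11 other genes of lipid uptake and transport 0 passed by edgeR, 9 lay below 0 and the median was -0.38. At an unadjusted edgeR p under 0.05, 1 was higher and 2 were lower, beside 3.37% and 7.12% of all genes tested. The scavenger receptor gene Cd36 was at 76.5, 49.8 and 88.8 CPM in knockout and at 49.4, 50.6 and 40.9 CPM in wild type, a log2 fold change of 0.61 (SE 0.24, edgeR adjusted p = 0.459). Apoe (-0.98, SE 0.43), the fatty acid transporter gene Slc27a1 (-0.84, SE 0.36) and the receptor gene Lrp1 (-0.38, SE 0.22) lay on the other side, and Lrp1 was at 0.0071 after the GC correction. Without WT-795 Apoe (-1.39, edgeR adjusted p = 0.0197) and Slc27a1 (-1.15, adjusted p = 0.0364) passed as lower, and 1 gene of the list, the VLDL receptor gene Vldlr, as higher, named here after its value was seen. Apoe also passed with no filter on low counts (edgeR adjusted p = 0.0162). Transcript GC was 59.5% for Apoe, 56.9% for Slc27a1 and 38.4% for Cd36, and over 17 alternatives their values nearest 0 were -0.32, -0.39 and 0.12.

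Adipoq and Plin1, which mark mature fat cells, varied more between libraries of a group than between the groups. Adipoq, the secreted hormone adiponectin (ENSMUSG00000022878, chromosome 16, 23146536 to 23158028, plus strand), had 20, 23 and 166 counts in knockout and 88, 115 and 10 in wild type. In CPM these were 2.64, 3.45 and 17.1 in knockout and 8.36, 10.9 and 1.39 in wild type, a 12.3-fold range. The highest library of all was a knockout and the lowest a wild type. The means of 7.72 ± 8.11 and 6.87 ± 4.91 CPM (SD, n = 3) gave a log2 fold change of 0.17 (SE 0.64, edgeR adjusted p = 0.913). This value rested on single libraries, since it was -1.21 (SE 0.63, adjusted p = 0.529) without mut-795, -0.29 (SE 0.53) without WT-795 and 1.29 (SE 0.65) with the Xist term.

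Plin1, the coat protein of the adipocyte lipid droplet (ENSMUSG00000030546, chromosome 7, 79720218 to 79732903, minus strand), had 10, 8 and 41 counts in knockout and 35, 51 and 9 in wild type. The corresponding levels were 1.32, 1.20 and 4.22 CPM in knockout and 3.32, 4.81 and 1.25 CPM in wild type. The same 3 libraries as for Adipoq were low, mut-596, mut-597 and WT-795, and the groups overlapped over nearly their whole range. The log2 fold change was -0.46 (SE 0.54, edgeR adjusted p = 0.711), and it was -1.34 (SE 0.61) without mut-795, -0.81 (SE 0.49) without WT-795 and 0.40 (SE 0.63) with the Xist term.

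The adipocyte genes Cfd, Retn and Cidec, chosen here after their values were seen, were highest among the knockouts in mut-795 and among the wild types in WT-597, as was Adipoq. The same held for 4 of 14 genes with any count in the list of mature adipocyte products and for 4 of 14 in that of droplets and lipolysis, so most genes of these lists had another order. Rbp4, which encodes a retinol carrier, was highest in mut-597 (26.2 CPM) and WT-596 (13.6 CPM), and Pde3b in mut-596 (34.3 CPM) and WT-795 (31.0 CPM). Cfd, the adipocyte protease adipsin, had 11, 28 and 177 counts in knockout and 35, 354 and 3 in wild type. Retn (resistin) had 2, 0 and 11 counts in the knockouts and 6, 11 and 0 in the wild types. Cidec, a droplet fusion gene, had 0, 2 and 14 and then 5, 9 and 1. A few other fat cell genes were absent or near so. Lep (leptin) and the brown fat gene Ucp1 had 0 counts in all 6 libraries, where 3 counts correspond to 0.283 to 0.450 CPM, and the adrenergic receptor gene Adrb3 had 2 counts in WT-596 only.

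Marker RNA of other tissues also differed between these libraries. Red cell markers stood at 4636, 9195 and 34970 summed CPM over 7 genes in knockout and at 11263, 34066 and 10364 in wild type, so mut-795 and WT-597 were high in these as in Adipoq and Cfd. Muscle markers were at 3314, 6528 and 6231 summed CPM in the knockouts and 5492, 13401 and 4281 in the wild types. With the muscle covariate Adipoq was at 0.84 (SE 0.56) and Plin1 at 0.06 (SE 0.51), neither past the threshold by edgeR. The part of either tissue in the adipocyte values was otherwise not tested. By root mean square difference of centred log2 CPM over the 6 libraries, the profiles nearest to Adipoq among 14114 genes were those of Isg20 (0.55), A830052D11Rik (0.55) and Yipf7 (0.61), and Isg20, an exonuclease gene induced by interferon, was at 1.72, 4.50 and 12.2 CPM in knockout and at 6.17, 11.9 and 2.91 CPM in wild type. Adipoq was the tested member with a spread wide enough for this search, an SD of at least 1 in log2 CPM.

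Of 10 tested genes in the list of mature adipocyte products, 0 passed by edgeR, 5 lay above 0 and 5 below, with a median of -0.15. Pde3b, which curbs lipolysis, was at 0.43 (SE 0.28), Rbp4 at 0.41 (SE 0.37), Tmem120b at -0.53 (SE 0.40) and the insulin-regulated glucose transporter gene Slc2a4 at -0.39 (SE 0.34), and each overlapped between groups. Of 11 tested droplet and lipolysis genes 0 passed, 7 lay below 0 and the median was -0.11. At an unadjusted edgeR p under 0.05, 1 of these 11 was lower, beside 7.12% of all genes tested. Bscl2 (seipin) was at -0.76 (SE 0.31), the triglyceride lipase gene Pnpla2 at -0.82 (SE 0.45), Plin3 at -0.31 (SE 0.22) and Mgll at -0.30 (SE 0.24), and Mgll was at 0.03 after the GC correction. Bscl2 passed without WT-795, at -1.07 (edgeR adjusted p = 0.0211).

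Pparg and Cebpa, the pair of transcription factors that drive and hold the adipocyte state, were both scarce. Pparg (ENSMUSG00000000440, chromosome 6, 115360951 to 115490399, plus strand) had 3, 1 and 10 counts in knockout and 21, 15 and 7 in wild type. In CPM these were 0.396, 0.150 and 1.03 in knockout and 1.99, 1.42 and 0.970 in wild type, so mut-795 lay just above WT-795 and the other knockouts below every wild type. The libraries mut-596 and mut-597 had no more than 3 counts, the size at which counting alone is uncertain, and the gene did not enter the test. With no filter on low counts the log2 fold change was -1.40 (SE 0.64, edgeR adjusted p = 0.441). The gene also passed the filter in 4 of the fits with 1 library left out, where it ran from -1.02 without mut-597 (SE 0.69, adjusted p = 0.616) to -2.36 without mut-795 (SE 0.80, adjusted p = 0.524), with no call in any of them. Cebpa (ENSMUSG00000034957, chromosome 7, 35119293 to 35121928, plus strand) was at 3.17, 2.55 and 2.88 CPM in knockout and at 4.08, 2.45 and 2.08 CPM in wild type. The knockout values lay inside the wild-type range. Its log2 fold change was -0.01 (SE 0.39, edgeR adjusted p = 0.989) and 0.47 (SE 0.37) after the GC correction, and its transcript is 62.6% G and C. Pparg and Cebpa each overlap 1 annotated gene on the opposite strand, Gm44079 and Gm45091.

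The wider set of adipogenic factors had 0 of 16 past the threshold by edgeR, 8 above 0 and 8 below, with a median of 0.07. Of the 16, 2 were lower at an unadjusted edgeR p under 0.05, beside 7.12% of all genes tested. Rxra, which encodes the partner of PPARγ on DNA, was at 10.3, 15.3 and 12.7 CPM in knockout and at 21.5, 22.9 and 16.2 CPM in wild type, with no overlap (log2 fold change -0.67, SE 0.25, edgeR adjusted p = 0.459). The groups lay apart for 1 of the 16 as lower, Rxra, and for 1 as higher, beside 6.22% and 5.66% of all genes tested. Cebpb, an early factor of adipogenesis, was at -0.80 (SE 0.34), Ppard at -1.17 (SE 0.60) and Ebf2, a factor of brown and beige precursors, at 0.48 (SE 0.26). Without WT-795 Rxra passed, at -0.82 (edgeR adjusted p = 0.0446). Transcript GC was 57.0% for Rxra and 67.2% for Cebpb, and over 17 alternatives their values nearest 0 were -0.30 and -0.41. Of 12 progenitor and inhibitor genes 0 passed, 7 lay below 0 and the median was -0.12. At an unadjusted edgeR p under 0.05, 2 of these 12 were lower, beside 7.12% of all genes tested. Pi16, a marker of fibroblast-like progenitors, was at 4.23, 5.25 and 4.63 CPM in knockout and at 11.3, 12.1 and 3.60 CPM in wild type, so WT-795 lay below all knockouts and the other wild types above them. Its log2 fold change was -0.95 (SE 0.39), beside -0.95 (SE 0.40) for Icam1, -0.46 (SE 0.29) for Dlk1, which encodes an inhibitor of adipogenesis, and 0.28 (SE 0.26) for Zfp521. Pi16 (-1.33, edgeR adjusted p = 0.0149), Icam1 (-1.26, adjusted p = 0.0448) and Dlk1 (-0.74, adjusted p = 0.0471) passed without WT-795, 3 of 12 beside 5.73% of all genes called lower.

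**Figure D3:**
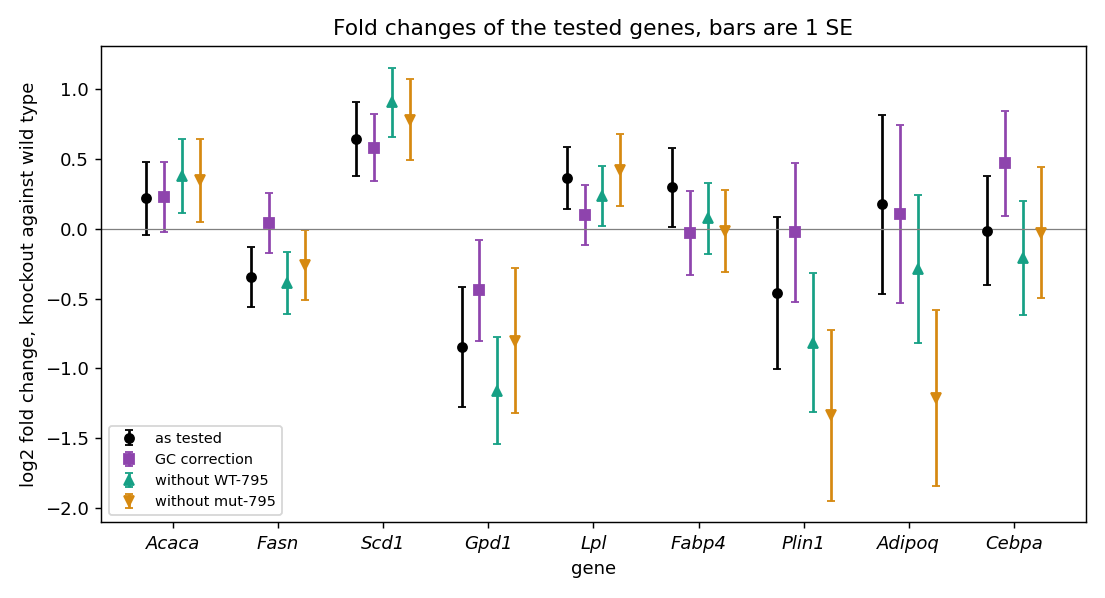
Log2 fold change (knockout over wild type) for the 9 tested genes, with bars of 1 SE, as tested and under 3 other settings. Scd1 stays above 0 in all 4 (0.64, 0.58, 0.90 and 0.78), Fasn crosses 0 with the GC correction, and Adipoq and Plin1 move to -1.21 and -1.34 without mut-795.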

How the data were processed

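Perichondrium RNA of 3 knockout and 3 wild-type libraries was made into cDNA libraries with a SMART-Seq v4 low-input kit and Nextera XT, per the labels' protocols. The authors deposited whole-number counts per gene, not normalized, and a table of log2 fold changes, whose base was judged from the values. The genome build GRCm38.p6 and DESeq2 are named in the submitters' processing notes, and how reads were counted (strand, multiple matches) is not stated in the sources used here. Symbols, positions, exon lengths and transcript GC came from GENCODE M21, promoter windows from RefSeq.

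Counts were tested with edgeR 4.0.16 (R 4.3.3; quasi-likelihood, TMM scaling, filterByExpr, no covariate, two-sided, Benjamini-Hochberg over 15712 genes, threshold 0.05). The SE is the log2 fold change over the square root of F. CPM are TMM-scaled, and log2 CPM used a prior count of 2. DESeq2 1.42.0 and limma-voom 3.58.1 ran on the same filtered genes. On simulated counts with 15712 genes, 32% of 2-fold and 88% of 4-fold changes were recovered, with 15 false calls. In the real counts only Fbn1 passed, so these shares need not hold for real changes of that size. The chemistry amplifies by PCR without molecular tags, so precision is that of reads.

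Named were all members, Fbn1, up to 4 genes per fixed lipid list with the smallest p, and the 3 nearest profiles of any member with an SD of at least 1. Members and lists were chosen with earlier results of these data known. The erythroid gene Ahsp matched no symbol. Alternatives covered scaling, filters, tool, block, GC content, muscle markers, Xist and each library left out. Epidermis and sebaceous markers were at 29.7 to 49.3 summed CPM, with Krt14 and Krt15 at 0 counts in every library. Chondrocyte markers were at 2039 to 3315 summed CPM, most of it Col11a1 at 1707 to 2853 CPM, with Col2a1 at 48.1 to 150 CPM.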

Additional observations from a re-analysis of the deposited data

How the results depend on the processing

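Over 17 alternatives the 9 tested members gave 153 values, of which 135 kept both direction and side of the threshold, 17 turned sign and 1, Scd1 without WT-795, passed. The count of genes past the threshold was 1, and 270 with no filter and 4 with the GC correction and replicate block together. It was between 1 and 1517 with 1 library left out, the highest without WT-795 and 12 without mut-795. The count of members past it was between 0 and 1 with 1 library left out. Fbn1 was at -3.65 (edgeR adjusted p = 0.104) with the Xist covariate, and at -3.71 to -3.22 with 1 library left out. With the GC correction Fasn was at 0.040, Fabp4 at -0.032, Cebpa at 0.47, Srebf2 at 0.14, Usf1 at 0.12, Mgll at 0.034 and Lrp1 at 0.0071. With that correction and the replicate block Fasn was at 0.043, Adipoq at -0.21, Cebpa at 0.48, Srebf2 at 0.15, Usf1 at 0.11, Mgll at 0.012 and Lrp1 at 0.00032. With the replicate block alone Adipoq was at -0.16 and Cebpa at 0.035. Plin1 was at 0.059 with the muscle covariate, and with the Xist covariate Acaca was at -0.092, Plin1 at 0.40 and Usf1 at 0.030. Cebpa was at 0.027 by limma-voom. With 1 library left out, Adipoq ran from -1.21 to 0.61, Fabp4 from -0.018 to 0.55, Cebpa from -0.21 to 0.33, Usf1 from -0.42 to 0.054 and Rbp4 from -0.20 to 0.73. Of 36 other named lipid genes, 18 of 610 values passed the threshold where the reported test did not, with no filter or without WT-795. The cause of these shifts was not tested.

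Deviations of same-numbered libraries from their group means correlated at -0.18, 0.24 and -0.20 over 15712 genes, and those of differently numbered libraries at -0.29 to 0.38. These values cannot tell whether the title numbers mark a pairing, since muscle, red cell and sex-linked RNA also differed between libraries. With the replicate block 1 gene passed, as without it, and 0 members. Depth limits Pparg, Retn and Cidec, at 21 counts or fewer in each library.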
